A study of Mus musculus with 10 samples.

Results

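The immediate-early and AP-1 transcription factors described here were 10 genes taken by symbol, Fos, Fosb, Fosl2, Jun, Junb, Atf3, Egr1, Ier2, Nr4a1 and Nr4a3, among 39179 gene IDs counted in mouse tibialis anterior (TA), a fast-twitch leg muscle. RNA-seq libraries of total RNA came from 4 Control mice, injected with PBS in each flank, and 6 LLC mice, injected in each flank with 750000 Lewis lung carcinoma cells, a mouse lung tumor line used as a model of cancer cachexia. The labels name C57BL/6J mice injected at 10 weeks and followed for 23 days, whereas the series design names male C57BL/10 mice injected at 8 weeks and studied at day 22. Neither source names an engineered allele, and the groups differed in the tumor cells alone by these descriptions. According to the study's methods, the LLC mice were those that survived the whole period, all animals were anesthetized with ketamine and xylazine before dissection, and muscles were snap frozen. The time between anesthesia and freezing is not given in the sources used here.

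Immediate-early genes are transcribed within minutes of a stimulus, without new protein synthesis, when growth factor, calcium or stress kinases reach factors already bound at their promoters. FOS proteins pair with JUN proteins to form AP-1, which binds the TGACTCA site, and ATF3 pairs with JUN proteins as well. EGR1 binds GC-rich sites, IER2 is a nuclear regulator of the early response, and NR4A1 and NR4A3 are orphan nuclear receptors that respond to contraction and beta-adrenergic signals in skeletal muscle. These transcripts are short-lived, and they also rise when tissue is handled, warmed or dissociated.

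The libraries held between 16693209 and 21303084 counts, with 19294257 to 21303084 in Control and 16693209 to 19962335 in LLC. Levels are given as CPM, counts scaled by library total and trimmed-mean (TMM) factors, and 3 counts corresponded to 0.141 to 0.180 CPM. Mitochondrially encoded genes took 28.4 to 30.7% of the counts in Control and 22.0 to 27.9% in LLC. Markers of fast myofibres summed to 125700 to 135000 CPM in Control and 90370 to 145800 CPM in LLC, with the lowest value in LLC 1, and none of their 8 genes passed the test. Animals are the replicates, so p-values set the difference of the groups against the spread between animals. A gene was called at an adjusted p of at most 0.05 by the quasi-likelihood test of edgeR and a change of at least 1.5-fold. Adjustment was by Benjamini-Hochberg over 12690 tested genes. Counts of list genes at an unadjusted p under 0.05 are given without the share of all tested genes, so no excess is read from them.

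Promoter sequences of 8 of the 10 genes were found in the RefSeq table for GRCm38.p6, all but Egr1 and Ier2. The 250 bases before the transcript start given there were searched on both strands for TGACG, the core shared by cyclic AMP response elements, which overlaps the longer element TGACGTCA on both of its strands. TGACG was present in 6 of the 8 windows, against 17.8% of 32851 mouse promoter windows of that length. Nr4a1 and Nr4a3 each held 4 copies, a number reached by 0.137% of all windows. The Nr4a3 copy 147 bases before its RefSeq start lies inside the annotated gene and is not printed. The sequences of 4 genes, which together hold most of these copies, are shown 5′ to 3′ along the strand of the gene. Junb holds 1 copy, as do Fosb and Atf3, which are not shown. TGACG, its reverse complement CGTCA and the EGR site are in capitals.
Fos: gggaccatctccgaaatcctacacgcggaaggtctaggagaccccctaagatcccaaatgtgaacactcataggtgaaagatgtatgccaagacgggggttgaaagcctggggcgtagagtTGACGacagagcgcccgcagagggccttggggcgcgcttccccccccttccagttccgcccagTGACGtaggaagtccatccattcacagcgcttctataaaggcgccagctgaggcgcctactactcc
Junb: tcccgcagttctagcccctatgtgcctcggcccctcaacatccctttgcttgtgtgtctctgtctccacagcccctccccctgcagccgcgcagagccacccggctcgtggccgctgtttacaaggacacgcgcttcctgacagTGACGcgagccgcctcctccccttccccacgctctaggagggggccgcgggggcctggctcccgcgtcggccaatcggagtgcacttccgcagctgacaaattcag
Nr4a1: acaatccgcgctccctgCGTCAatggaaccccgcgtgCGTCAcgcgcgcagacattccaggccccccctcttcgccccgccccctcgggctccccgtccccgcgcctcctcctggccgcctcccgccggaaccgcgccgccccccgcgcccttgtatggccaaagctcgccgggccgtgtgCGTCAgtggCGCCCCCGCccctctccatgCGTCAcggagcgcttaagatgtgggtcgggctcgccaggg
Nr4a3: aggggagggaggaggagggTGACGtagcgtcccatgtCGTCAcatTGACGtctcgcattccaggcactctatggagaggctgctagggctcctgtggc
The Fos window lies at chr12:85473640-85473889 (+) and its copies start 129 and 66 bases before that start. The Junb window lies at chr8:84978749-84978998 (-) with its copy 106 bases before the start. The Nr4a1 window lies at chr15:101266596-101266845 (+), before a RefSeq start that is inside the longer GENCODE gene, with copies 233, 213, 69 and 40 bases before it. The Nr4a3 stretch lies at chr4:48045055-48045152 (+), holds the copies at 231, 213 and 205 bases, and ends at its first annotated exon.

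The EGR site, searched as GCGTGGGCG and GCGGGGGCG, matched the windows of Fosb, Fosl2 and Nr4a1, 3 of 8, against 3.06% of all windows. No member window held the full element TGACGTCA (1.55% of all windows), the AP-1 site TGACTCA, whose reverse complement is TGAGTCA (4.46%), the NR4A site AAAGGTCA (1.34%) or the CArG box bound by serum response factor (1.47%). These are letter matches in a short window, and factor binding was not measured. Sequence farther upstream was not searched, nor were Egr1 and Ier2, so an absence here does not mean that a gene lacks the site.

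Of the 10 genes, Fosl2 was called higher in LLC, Egr1 was called lower, 7 were not called, and Fosb was left untested by the filter on low counts. In 9 tested genes, 1 higher call stands beside 1.65% called higher among all tested genes, and 1 lower call beside 3.99% called lower. The log2 fold changes were positive for 4 and negative for 5 of the 9, with a median of -0.16 against 0.0019 over all tested genes. Fosl2 and Egr1 were also the members whose groups did not overlap, and among all tested genes 6.4% lay wholly above and 9.57% wholly below the Control range. The members did not share a direction, and they are described by family.

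**Figure D1:**
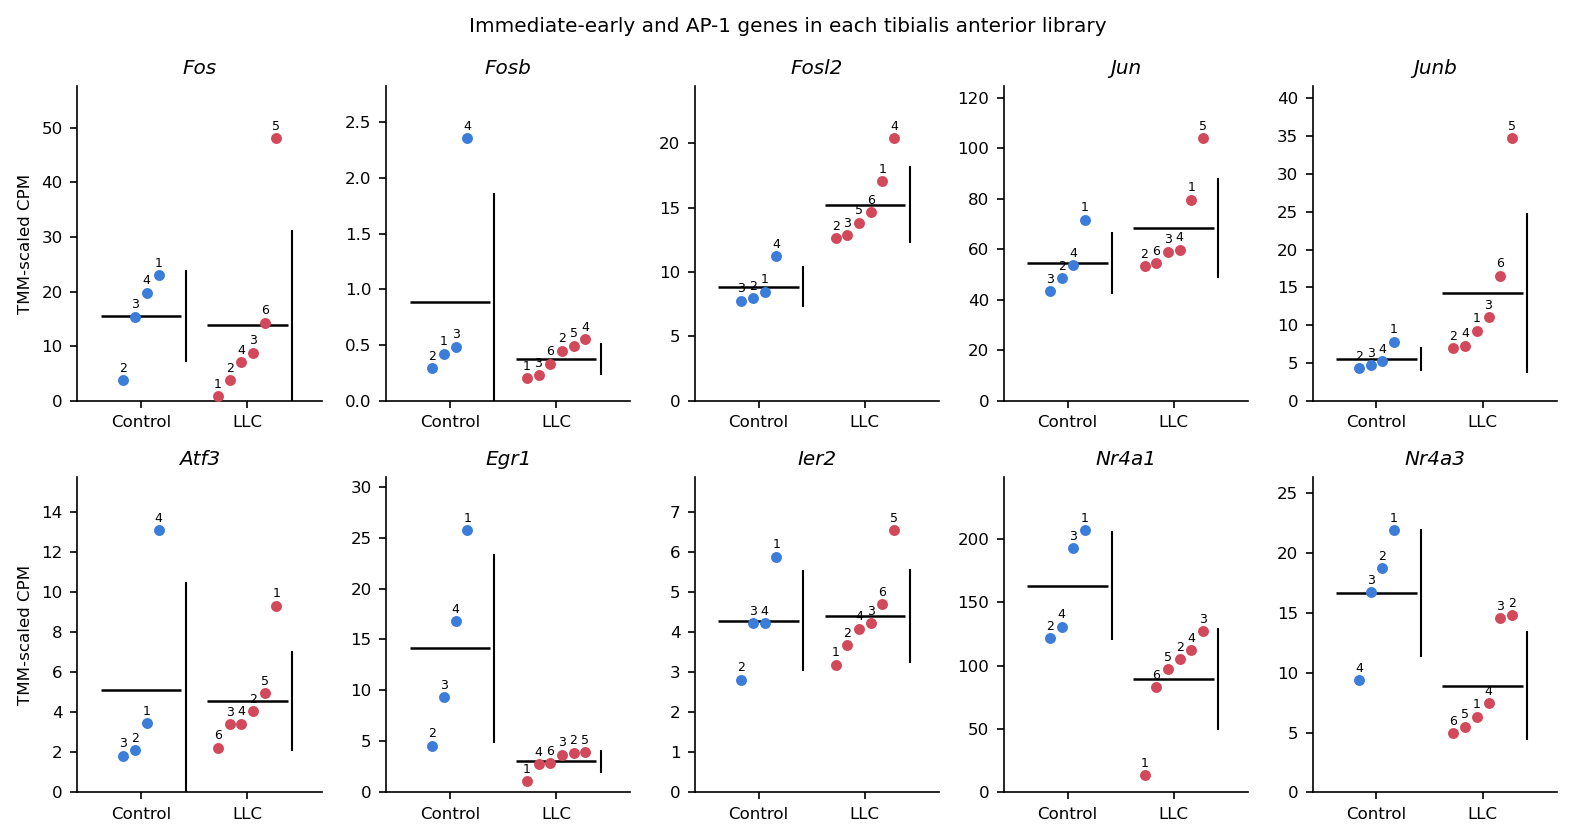
TMM-scaled CPM (vertical axes, linear, each from 0) of the 10 genes in the 4 Control and 6 LLC libraries. Each point is 1 library with its replicate number, horizontal lines are group means and vertical lines are ± 1 SD, clipped at 0; only the Fosl2 and Egr1 groups are separate, and LLC 5 is the highest library for Fos, Jun, Junb and Ier2.

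Among the FOS family, Fosl2, which encodes the stable AP-1 subunit FRA-2 (chromosome 5, 32135801 to 32157842, plus strand, GRCm38), was higher in every LLC mouse. Its levels in Control 1 to 4 were 8.47, 7.95, 7.79 and 11.2 CPM, and in LLC they ran from 12.7 to 20.4 CPM with a median of 14.2 CPM. The lowest LLC library lay above the highest Control library. The mean rose from 8.86 ± 1.61 CPM (SD, n = 4) to 15.2 ± 2.98 CPM (SD, n = 6), or 0.78 ± 0.16 (SE) on the log2 scale, at an adjusted p of 0.0144 (edgeR). The call was lost without Control 1, Control 2 or Control 3, at adjusted p-values of 0.0550, 0.0551 and 0.0598 and log2 fold changes of 0.76, 0.73 and 0.73. The SD of log2 CPM of Fosl2 between animals was 0.24 in Control and 0.26 in LLC, at the 79.0th and 46.3rd percentiles of all tested genes.

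Fos, the founding AP-1 gene (chromosome 12, 85473890 to 85477273, plus strand), was the most variable member. It was at 23.0, 3.75, 15.4 and 19.8 CPM in Control 1 to 4, and in LLC it ran from 0.926 CPM in LLC 1 through a median of 7.96 CPM to 48.0 CPM in LLC 5. The LLC range covered the whole Control range, and its highest library was 51.9 times its lowest, against 6.13 times in Control. The means were 15.5 ± 8.42 CPM (SD, n = 4) and 13.8 ± 17.4 CPM (SD, n = 6), with a log2 fold change of -0.16 ± 0.79 (SE, adjusted p = 0.912, edgeR). Without LLC 5 the log2 fold change was -1.15, and without LLC 1 it was 0.11, neither past the threshold. The biological coefficient of variation of Fos in the edgeR fit was 83.4%, at the 99.94th percentile of all tested genes.

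Fosb, a close relative of Fos (chromosome 7, 19302696 to 19310051, minus strand), was near the limit of these libraries, with 4 to 43 counts. Its levels were 0.424, 0.296, 0.487 and 2.36 CPM in Control 1 to 4, and 0.206 to 0.554 CPM with a median of 0.394 CPM in LLC. Control 4 alone was high, and the other libraries of both groups overlapped. In a fit without the filter on low counts the log2 fold change of Fosb was -1.19 ± 0.54 (SE), with an unadjusted p of 0.0429 and an adjusted p of 0.235 (edgeR).

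In the JUN family, Junb (chromosome 8, 84974484 to 84978718, minus strand), whose protein is often a weaker activator than JUN and is also tied to the maintenance of muscle mass, had the largest positive change without being called. It was at 7.84, 4.35, 4.76 and 5.26 CPM in Control 1 to 4 and ran from 6.95 to 34.7 CPM with a median of 10.2 CPM in LLC. In 4 of 6 LLC libraries Junb was above every Control, and LLC 5 and LLC 6 (16.6 CPM) were the highest. The means were 5.55 ± 1.57 CPM (SD, n = 4) and 14.3 ± 10.6 CPM (SD, n = 6), or 1.37 ± 0.45 (SE) on the log2 scale, at an adjusted p of 0.0898 (edgeR). The adjusted p of Junb was 0.0155 with DESeq2 and 0.0463 with limma voom, and over the fits that left out 1 library it ran from 0.0439 without LLC 1 to 0.204 without Control 3. Without LLC 5 the log2 fold change of Junb was 0.88 (adjusted p = 0.106, edgeR).

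Jun (chromosome 4, 95049034 to 95052222, minus strand), the AP-1 subunit phosphorylated by JNK, was the most abundant FOS or JUN gene per kilobase. Its levels were 71.8, 48.7, 43.5 and 53.9 CPM in Control 1 to 4, and 53.4 to 103.9 CPM with a median of 59.5 CPM in LLC. LLC 1 (79.7 CPM) and LLC 5 lay above every Control and the other 4 LLC libraries lay within the Control range. The log2 fold change of Jun was 0.33 ± 0.21 (SE, adjusted p = 0.310, edgeR). Jun overlaps the antisense gene Junos by 232 exonic bases and Junb overlaps Prdx2 by 173, and reads there may have been assigned to either partner.

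Atf3, a stress-induced member of the ATF family (chromosome 1, 191170296 to 191218039, minus strand), was at 3.44, 2.12, 1.84 and 13.1 CPM in Control 1 to 4 and at 2.24 to 9.31 CPM with a median of 3.75 CPM in LLC. The groups overlapped, with Control 4 the highest library and LLC 1 next. The log2 fold change of Atf3 was -0.16 ± 0.54 (SE, adjusted p = 0.872, edgeR), and without Control 4 it was 0.89 with an adjusted p of 0.26.

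The make-up of each family was compared per kilobase of exon, the scale on which levels of different genes can be set side by side. Junb made up 10.9, 9.51, 10.2 and 9.32% of the summed Jun, Junb and Jund level in Control 1 to 4. In LLC 1 to 6 its share was 12.5, 12.9, 17.6, 11.3, 27.2 and 24.2%. All 6 LLC shares lay above every Control share. The means were 10.0 ± 0.741% (SD, n = 4) and 17.6 ± 6.67% (SD, n = 6), with a two-sided exact permutation p of 0.00952, the smallest that the 210 assignments of the labels allow, and an adjusted p of 0.0571 over the 6 family values compared, which missed the threshold. The mean share of Jun was 71.4% in Control and 66.6% in LLC, and that of Jund, the constitutive JUN gene, was 18.6% and 15.8%; neither share was tested on its own.

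Fosl2 made up 14.0 ± 8.99% (SD, n = 4) of the summed Fos, Fosb, Fosl1 and Fosl2 level in Control and 32.4 ± 22.4% (SD, n = 6) in LLC. The LLC values ran from 6.42% in LLC 5, where Fos was highest, to 71.5% in LLC 1, where Fos was lowest. The groups overlapped, and the exact permutation p was 0.124 (adjusted 0.186). The summed level of the JUN family was 23.9 ± 5.26 CPM per kilobase (SD, n = 4) in Control and 32.8 ± 11.5 (SD, n = 6) in LLC (exact permutation p = 0.114, adjusted 0.186). For the FOS family the sums were 8.19 ± 3.69 and 7.95 ± 7.30 CPM per kilobase (SD, n = 4 and 6, exact permutation p = 0.914, adjusted 0.914).

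**Figure D2:**
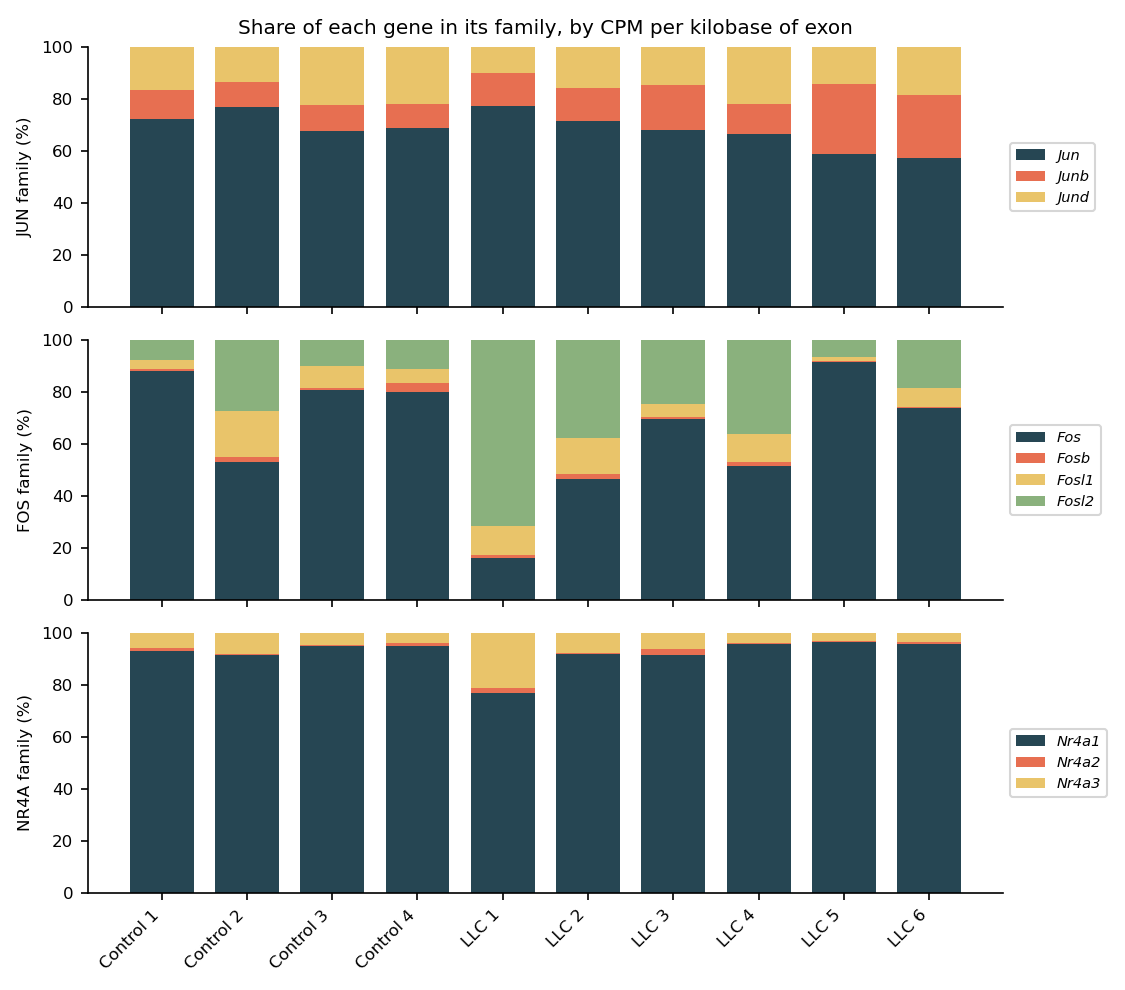
Share of each gene in the summed level of its family (vertical axes, percent, CPM per kilobase of exonic length) in each Control and LLC library (horizontal axis, 1 stacked bar per library). Junb takes 9.32 to 10.9% of the JUN family in Control and 11.3 to 27.2% in LLC, the FOS family of LLC 1 is mostly Fosl2, and Nr4a1 is 76.8% of the NR4A family in LLC 1 and at least 91.5% in the other libraries.

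Egr1, a zinc-finger factor induced by growth factors and mechanical load (chromosome 18, 34859823 to 34864984, plus strand), was the most reduced member. It was at 25.7, 4.59, 9.36 and 16.8 CPM in Control 1 to 4, and in LLC it ran from 1.08 to 3.97 CPM with a median of 3.28 CPM. All 6 LLC libraries were below every Control, although LLC 5, at 3.97 CPM, came close to Control 2. The mean was 14.1 ± 9.23 CPM (SD, n = 4) in Control and 3.05 ± 1.09 CPM (SD, n = 6) in LLC, 4.64-fold higher in Control. On the log2 scale the difference was -2.21 ± 0.43 (SE), at an adjusted p of 0.0101 (edgeR). Leaving out each library in turn gave log2 fold changes of -2.51 to -1.75 and adjusted p-values of 0.00386 to 0.0399, so the call held in all 10 of these fits.

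Of the fibroblast markers, 6 of 7 were called lower in LLC and 1 higher. Their summed level was 279.1 to 353.1 CPM in Control and 104.9 to 132.4 CPM in LLC. Among the other markers, 3 of 5 mural and 3 of 5 Schwann cell genes were called lower and none higher, whereas endothelial genes summed to 288.1 to 367.7 CPM in Control and 292.0 to 338.5 CPM in LLC with 1 of 8 called lower. In Control 1 to 4 the fibroblast sums were 279.1, 291.6, 353.1 and 324.6 CPM, beside Egr1 at 25.7, 4.59, 9.36 and 16.8 CPM. In bulk muscle, fewer cells of a type and less RNA per cell cannot be told apart, and the part of these cells in the Egr1 result was not tested.

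Genes long known as EGR1 targets had negative log2 fold changes in 8 of 8 cases (median -0.52, against 0.0019 over all tested genes). Beside 3.99% called lower among all tested genes, 3 of the 8 were called lower. These were Col1a2, a fibrillar collagen chain (60.2 to 8.84 mean CPM, log2 fold change -2.77 ± 0.33 SE, adjusted p = 0.000587), F3, tissue factor (2.21 to 0.502 CPM, -2.11 ± 0.24, adjusted p = 0.000492), and Fn1, fibronectin (17.2 to 8.15 CPM, -1.08 ± 0.15, adjusted p = 0.00112), all by edgeR. The 3 calls were kept in all 10 fits that left out 1 library. Col1a2 and Fn1 are also expressed by fibroblasts. The list was chosen with earlier results of these data known, and its count is not independent evidence of a direction.

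The NR4A receptors Nr4a1 and Nr4a3 had lower means in LLC and were not called. Nr4a1 (chromosome 15, 101254269 to 101274795, plus strand), which promotes glucose use in muscle, was the most abundant member per kilobase in both groups. It was at 207.1, 121.7, 192.7 and 130.7 CPM in Control 1 to 4, and in LLC it ran from 13.4 CPM in LLC 1 through a median of 101.3 CPM to 127.4 CPM in LLC 3. In 5 of 6 LLC libraries Nr4a1 was below every Control, and LLC 1 was far below the rest. The means were 163.0 ± 43.1 CPM (SD, n = 4) and 89.8 ± 40.2 CPM (SD, n = 6), with a log2 fold change of -0.86 ± 0.43 (SE, adjusted p = 0.212, edgeR). Without LLC 1 the change of Nr4a1 was smaller, -0.62 ± 0.16 (SE), and its adjusted p was 0.0246, and limma voom with sample weights gave -0.65 with an adjusted p of 0.0451. LLC 1 was also the library with the lowest summed myofibre markers, 90370 CPM, and the part of that library's make-up in its Nr4a1 value was not tested.

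Nr4a3 (chromosome 4, 48045153 to 48086447, plus strand), tied to oxidative metabolism and exercise, was at 21.9, 18.7, 16.7 and 9.37 CPM in Control 1 to 4 and at 4.98 to 14.8 CPM with a median of 6.89 CPM in LLC. In 4 of 6 LLC libraries it was below every Control, while LLC 2 and LLC 3 lay above Control 4. The change of Nr4a3 was -0.91 ± 0.34 (SE) on the log2 scale, with an adjusted p of 0.121 (edgeR), and over the fits that left out 1 library the adjusted p ran from 0.0642 to 0.28. The summed level of Nr4a1, Nr4a2 and Nr4a3 was 49.6 ± 12.9 CPM per kilobase (SD, n = 4) in Control and 27.4 ± 12.0 (SD, n = 6) in LLC, with 5 of 6 LLC libraries below every Control (exact permutation p = 0.0286, adjusted 0.0857). The share of Nr4a1 in that sum was 93.6 ± 1.64% and 91.3 ± 7.42% (SD, n = 4 and 6, exact permutation p = 0.848, adjusted 0.914).

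Of 8 genes of glucose and fuel handling tied to NR4A receptors in muscle, none was called by edgeR or DESeq2, 6 had negative log2 fold changes and 4 had an unadjusted p under 0.05, with a median of -0.45. The glucose transporter gene Slc2a4 (GLUT4) had the smallest p, going from 568.1 to 381.0 mean CPM, a log2 fold change of -0.58 ± 0.15 (SE) with an adjusted p of 0.0431 (edgeR), just under the 1.5-fold minimum. The summed level of the list was 19310 to 20610 CPM in Control, 13070 to 17410 CPM in LLC 2 to 6 and 5748 CPM in LLC 1.

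Ier2 (chromosome 8, 84661331 to 84662852, minus strand) was at 5.88, 2.82, 4.22 and 4.22 CPM in Control 1 to 4 and at 3.19 to 6.54 CPM with a median of 4.16 CPM in LLC. The groups overlapped, and all LLC libraries but LLC 5 lay inside the Control range. The means were 4.28 ± 1.25 CPM (SD, n = 4) and 4.40 ± 1.17 CPM (SD, n = 6), with a log2 fold change of 0.04 ± 0.23 (SE, adjusted p = 0.916, edgeR).

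**Figure D3:**
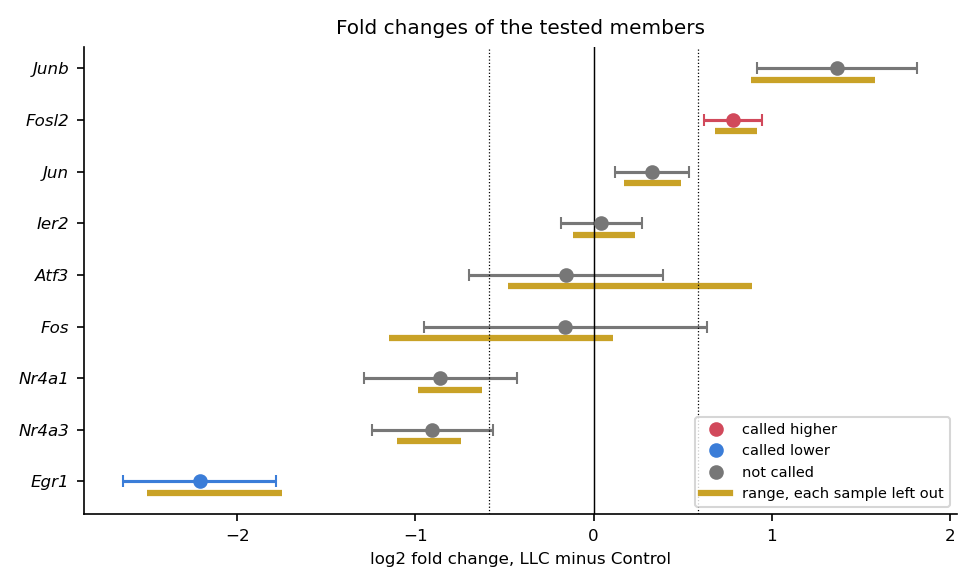
Log2 fold change, LLC minus Control (horizontal axis), of the 9 tested members (vertical axis) from edgeR, with points at the estimate, thin bars of ± 1 SE, thick bars for the range over the 10 fits that each left out 1 library, and dotted lines at a change of 1.5-fold. Egr1 (-2.21) and Fosl2 (0.78) are called, and the thick bars of Fos, Atf3 and Ier2 cross 0.

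Per kilobase of exon, the order of mean levels in Control was Nr4a1 (46.5 ± 12.3 CPM per kilobase, SD, n = 4), Jun (17.1 ± 3.86), Fos (6.59 ± 3.58), Egr1 (3.15 ± 2.06), Ier2 (2.81 ± 0.823), Nr4a3 (2.79 ± 0.890), Junb (2.41 ± 0.683), Atf3 (2.38 ± 2.49), Fosl2 (0.915 ± 0.166) and Fosb (0.143 ± 0.157). From Fos down to Fosl2, neighbours in this order differed by less than the larger SD of the pair, whereas Nr4a1 and Jun stood apart from each other and from Fos. In LLC, Nr4a1 (25.6 ± 11.5, SD, n = 6) and Jun (21.5 ± 6.21) were within 1 SD of each other, and were followed by Junb (6.22 ± 4.60), Fos (5.88 ± 7.39), Ier2 (2.89 ± 0.767), Atf3 (2.12 ± 1.16), Fosl2 (1.57 ± 0.307), Nr4a3 (1.49 ± 0.755), Egr1 (0.679 ± 0.244) and Fosb (0.0607 ± 0.0230). Here too neighbours from Junb to Nr4a3 differed by less than the larger SD, and Egr1 and Fosb lay below by more than that. Egr1 went from the fourth to the ninth place and Junb from the seventh to the third.

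Some members differed widely between animals of the same group. The SD of log2 CPM in Control was 1.18 for Fos, 1.07 for Egr1 and 1.26 for Atf3, at the 99.89th, 99.85th and 99.94th percentiles of tested genes, against a median of 0.13 over all tested genes. In LLC the SD was 1.86 for Fos (99.96th percentile) and 1.22 for Nr4a1 (99.25th percentile), against a median of 0.28. Fosl2, Ier2 and Jun were less extreme in LLC, at the 46.3rd, 63.8th and 69.2nd percentiles. The SD was larger in LLC for 6 of the 9 members, while Egr1, Atf3 and Ier2 had the larger SD in Control. Over all tested genes 85.1% had the larger SD in LLC.

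**Figure D4:**
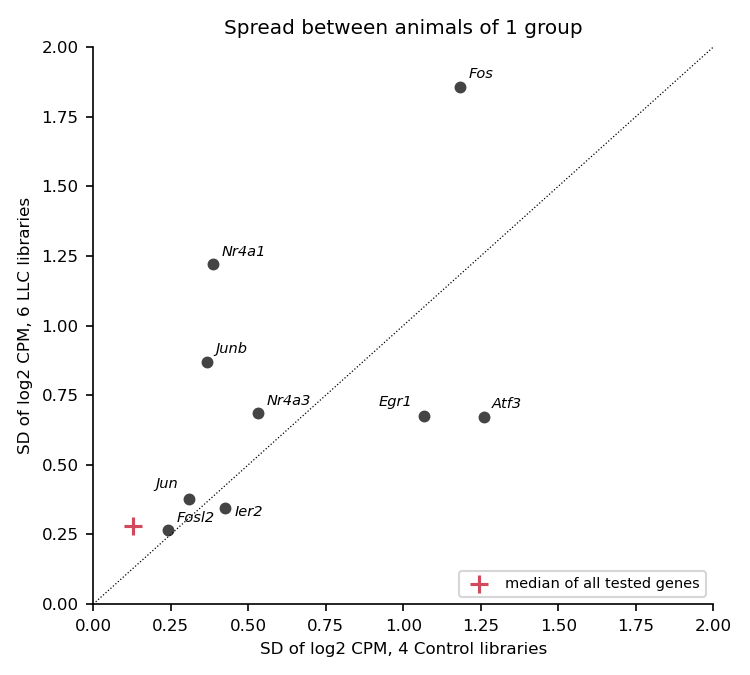
SD of log2 CPM over the 4 Control libraries (horizontal axis) against that over the 6 LLC libraries (vertical axis) for the 9 tested members, with the diagonal of equal spread dotted and the median of all tested genes as a cross. Fos has the largest LLC SD (1.86), Egr1 and Atf3 lie below the diagonal, and every member lies to the right of the all-gene median of 0.13 in Control.

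The extremes fell in different libraries for different members. LLC 5 was the highest library for 4 members, Fos, Jun, Junb and Ier2, and LLC 1 was the lowest for 4, Fos, Fosb, Egr1 and Nr4a1. LLC 1 was at the same time the second highest for Fosl2, Jun and Atf3. Control 1 was the highest for Egr1, Nr4a1 and Nr4a3, Control 4 for Fosb and Atf3, and Control 3 was the lowest for Fosl2, Jun and Atf3. Leaving out LLC 1 and LLC 5 together, a choice made after seeing the data, gave 4 called members in place of 2, with Junb at 0.91 (adjusted p = 0.0316, edgeR) and Nr4a1 at -0.61 (adjusted p = 0.0247, edgeR) beside Fosl2 (0.77) and Egr1 (-2.10).

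By the distance between standardized log2 CPM profiles over the 10 libraries, where 0 means the same profile, the genes most like each member were not members. They were Stk16 for Fos (0.776), Tmem176a for Fosl2 (0.882), Wdr53 for Jun (0.510), Tfeb for Junb (0.559), 1700037H04Rik for Egr1 (0.909), Ap1g2 for Atf3 (1.62), Kctd13 for Ier2 (1.25), Aes for Nr4a1 (0.456) and Mark1 for Nr4a3 (1.14). Few of the 12689 genes compared with each member were members, so a nearest gene outside them was likely in advance. Among the members, Ier2 ranked 28 of 12689 other genes by closeness to Fos, and Fos ranked 11 by closeness to Ier2. Junb ranked 233 for Ier2 and 295 for Jun, and Jun ranked 469 for Junb. Nr4a1 ranked 470 for Fos and 681 for Egr1, while Egr1 ranked 2125 for Nr4a1. At the other end, Nr4a3 ranked 12381 for Fosl2 and Fosl2 ranked 12464 for Nr4a3.

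Genes that respond to stress of the tissue were set beside the members. All 15 listed heat-shock genes had positive log2 fold changes (median 0.30), none was called by edgeR, 2 were called by DESeq2 and 5 had an unadjusted p under 0.05. Hsph1, a chaperone that assists HSP70, had the smallest p of the list. Its log2 fold change was 0.74 ± 0.23 (SE) at an adjusted p of 0.0791 (edgeR). Hsp90ab1 (822.5 mean CPM in Control, 1404 in LLC) and Hspa8 (679.7 and 760.6) had the highest levels of the list. Hspa1a (0.83 and 1.2 mean CPM) and Hspa1b (1.0 and 1.5) were low. The summed level of the list was 2342 to 2431 CPM in Control and 4558, 2674, 2670, 2503, 3539 and 3216 CPM in LLC 1 to 6. The sum of every LLC library was above that of every Control, and Hsp90ab1 and Hspa8 weigh most in it. Among the listed genes, only Hspb8, Hsph1 and Hsp90ab1 lay wholly above the Control range, as did 6.4% of all tested genes. Fos was at 0.926, 3.78, 8.86, 7.05, 48.0 and 14.3 CPM in LLC 1 to 6 and at 3.75 to 23.0 CPM in Control. The 2 libraries with the highest heat-shock sums, LLC 1 and LLC 5, were those with the lowest and the highest Fos. The part of handling at dissection in the members' values was not tested.

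Of 14 genes that rise in low oxygen, Pfkfb3, a glycolytic regulator, was called higher (185.8 to 410.8 mean CPM, log2 fold change 1.15 ± 0.31 SE, adjusted p = 0.0457, edgeR) and none lower, with a median of -0.02. The Pfkfb3 call was kept in 2 of the 10 fits that left out 1 library, those without LLC 1 or LLC 2, and was lost with upper-quartile factors and under the stricter filter of 10 counts per sample, while DESeq2 called 2 genes of the list. Their summed level was 1377 to 1614 CPM in Control and 1576 to 2110 CPM in LLC, highest in LLC 1. Neutrophil markers, 9 of 9 tested called higher, summed to 1.11 to 2.82 CPM in Control and to 44.9, 50.4, 36.2, 76.3, 77.6 and 37.4 CPM in LLC 1 to 6. Junb was at 9.31, 6.95, 11.1, 7.31, 34.7 and 16.6 CPM in the same LLC libraries and at 4.35 to 7.84 CPM in Control, so both it and the neutrophil sum had higher means in LLC. Macrophage markers summed to 15.5 to 23.1 CPM in Control and 9.73 to 17.1 CPM in LLC (1 of 7 called lower), and erythroid genes to 58.8 to 83.4 and 88.7 to 144.3 CPM (3 of 5 called higher). Of satellite cell genes 2 of 4 were called lower, of tendon genes 2 of 3, and of adipocyte genes 0 of 2 in edgeR, with 1 of the 2 at an unadjusted p under 0.05. The part of these cells in the members' values was not tested.

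Genes around the members in the same pathway were grouped in 5 lists. By edgeR, 6 of their 114 tested genes were called (5.26%), against 5.63% of all tested genes. The EGR1 and NR4A target lists described above are not in this count. It holds for edgeR alone, since DESeq2 and limma voom called more genes in some of these lists. Over all genes DESeq2 called 1052 and limma voom 997, against 715 by edgeR. Of 38 tested other early-response genes, 2 were called higher and 1 lower, and 28 had positive log2 fold changes. Their median was 0.41, against 0.0019 over all tested genes. An unadjusted p under 0.05 was found for 16, and the share of all tested genes at that level is not given. The count of called genes in this list depended on the tool and the libraries, with 12 called by DESeq2, 9 by limma voom, 8 without LLC 1 and LLC 5, and 0 to 7 with each library left out (0 without Control 3). Klf10, a TGF-beta-induced zinc-finger factor, rose from 13.5 to 44.2 mean CPM (log2 fold change 1.71 ± 0.40 SE, adjusted p = 0.0274, edgeR), and Ier3, an early gene linked to cell survival, rose from 3.03 to 7.36 CPM (1.28 ± 0.29, adjusted p = 0.0213). Ccn2, connective tissue growth factor, fell from 8.04 to 3.84 CPM (log2 fold change -1.07 ± 0.23 SE, adjusted p = 0.0185, edgeR). Leaving out 1 library ended the call of Klf10 for Control 1, 2 or 3 or LLC 6, that of Ier3 for any Control, and that of Ccn2 for Control 3 or 4. The relatives Egr2, Egr3 and Egr4 were too low to be tested.

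None of 12 tested other AP-1, ATF and small MAF genes was called by edgeR, 1 was called by DESeq2 and 2 had an unadjusted p under 0.05. The smallest p belonged to Maff, a small MAF gene, with 1.37 mean CPM in Control and 3.82 CPM in LLC (log2 fold change 1.48 ± 0.41 SE, adjusted p = 0.0535, edgeR). None of 41 upstream kinases, cofactors and promoter-bound factors was called by edgeR or DESeq2, and 4 had an unadjusted p under 0.05, with a median log2 fold change of 0.01. The smallest of these belonged to Elk4, a partner of serum response factor (25.2 and 53.3 mean CPM, log2 fold change 1.08 ± 0.46 SE, adjusted p = 0.162).

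Of 17 feedback inhibitors of the pathway, 13 had negative log2 fold changes (median -0.41) and 1 was called lower. This was Spred2, an inhibitor of RAS and MAP kinase signaling, which fell from 7.80 to 4.97 mean CPM (log2 fold change -0.65 ± 0.16 SE, adjusted p = 0.0338, edgeR). The Spred2 call was kept in 2 of the 10 fits that left out 1 library, those without LLC 3 or LLC 4, and DESeq2 called 2 genes of the list. Of 6 tested AP-1 targets, Mmp9, a gelatinase abundant in neutrophils, was called higher (0.449 to 1.76 mean CPM, log2 fold change 1.97 ± 0.51 SE, adjusted p = 0.0400, edgeR), and Plau, urokinase, was called lower (12.6 to 5.24 CPM, -1.26 ± 0.17, adjusted p = 0.00107). The Plau call was kept in all 10 fits that left out 1 library, and the Mmp9 call in 3, those without Control 3, LLC 1 or LLC 3. DESeq2 called 4 genes of this list. The AP-1 targets Mmp3, Mmp10, Mmp13, Timp1, Il6 and Ccl2 were too low to be tested. As with the members, the list medians lay on either side of that of all tested genes.

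**Figure D5:**
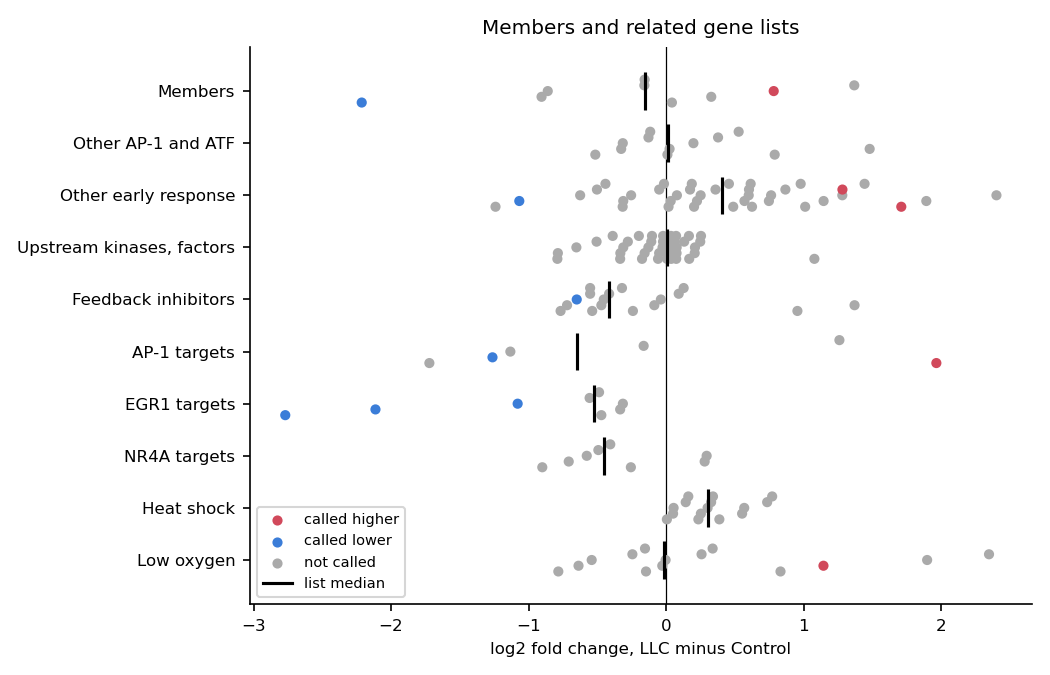
Log2 fold change, LLC minus Control (horizontal axis), of each tested gene in the members and 9 related lists (vertical axis), from edgeR, with 1 point per gene, colored by its call, and black bars at list medians. The 8 EGR1 targets all lie below 0, the 15 heat-shock genes all lie above 0 without a call, and the members lie on both sides.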

How the data were processed

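Raw counts per gene of 10 TA libraries (4 Control, 6 LLC, grouped by title) were deposited by the authors, who, per the study's methods and the submitters' processing notes, mapped paired-end reads of a stranded total RNA kit to mm10 with TopHat and ran HTSeq with default settings for the counting. The annotation release is not given in the sources used here, and the strand setting is not named. Of 39179 gene IDs, 37607 were matched to symbols and exonic lengths in GENCODE M21 (GRCm38).

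The members and all lists were chosen with earlier results of these data known. Counts were tested in R 4.3.3 with edgeR 4.0.16 (filterByExpr with a minimum count of 10, TMM factors, prior count 2, quasi-likelihood F test, two-sided, Benjamini-Hochberg over 12690 genes). Alternatives used DESeq2 1.42.0, limma 3.58.1 (voom with sample weights), other scalings and filters, a replicate block, and each library left out. Across all genes 209 were called higher and 506 lower. Family values were compared by exact permutation over all 210 assignments of the labels. Each library was counted as 1 animal, following the study design. Libraries of 1 group differed beyond counting noise in every pair (chi-square per degree of freedom 3.93 to 8.73 in Control, 8.52 to 196.9 in LLC). Outside the members, named genes were the called genes of each list, at most 6 by smallest p, or the gene with the smallest p where none was called, and the tested gene nearest to each member by profile. Floors cover counting error only.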

Additional observations from a re-analysis of the deposited data

Results flagged for a closer look

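In 32 groups of 4 or 6 libraries (16 measures of the members and their families), 8 had 1 library farther from the rest than Dixon's test allows at 95%. For normally distributed values, chance alone flags about 1 in 20 groups, or 1.6 of 32. That rate need not hold for untransformed CPM, and the measures share genes, so no excess is read from the 8. LLC 5 stood above the other LLC libraries for Fos (48.0 CPM, others up to 14.3), for Junb (34.7 CPM, others up to 16.6), for the summed JUN family (55.5 CPM per kilobase, others up to 32.3) and for the summed FOS family (22.3 CPM per kilobase, others up to 8.26). These 4 values come from 1 library and share genes. Control 4 stood above the other Controls for Atf3 (13.1 CPM, others up to 3.44) and for Fosb (2.36 CPM, others up to 0.487). The share of Fosl2 in the FOS family was 27.4% in Control 2 and 7.90 to 10.98% in the other Controls. The share of Nr4a1 in the NR4A family was 76.8% in LLC 1 and at least 91.7% in the other LLC libraries. The causes were not tested.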

How the results depend on the processing

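Egr1 stayed called lower in every alternative but the replicate block, and Fosl2 stayed called higher in every alternative but those without Control 1, 2 or 3. Members called numbered 2, against 4 with limma voom, 4 without LLC 1 and LLC 5 together (added after seeing the data) and 1 to 4 with each library left out (1 without Control 1, 2 or 3 and 4 without LLC 1). Over all genes 715 were called, against 1052 with DESeq2 (388 higher, against 209), 997 with limma voom, 475 with at least 10 counts in every sample and 415 to 966 with each library left out. Genes called in the lists were 10, against 26 with DESeq2, 19 with limma voom, 18 without LLC 1 and LLC 5, and 5 to 19 with each library left out. These counts fell in some fits with fewer samples or genes and rose in others, as without LLC 1 (966 genes and 4 members called). The causes were not tested.

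With each library, or LLC 1 and LLC 5 together, left out, the log2 fold changes ran from 0.68 to 0.92 for Fosl2, 0.88 to 1.58 for Junb, 0.05 to 0.49 for Jun, -2.51 to -1.75 for Egr1, -0.99 to -0.61 for Nr4a1, -1.10 to -0.69 for Nr4a3, -1.15 to 0.11 for Fos, -0.63 to 0.89 for Atf3 and -0.12 to 0.23 for Ier2. Junb passed the threshold with DESeq2 (1.38), limma voom (0.89), without LLC 1 (1.48) and without LLC 1 and LLC 5 (0.91), and Nr4a1 with limma voom (-0.65), without LLC 1 (-0.62) and without both (-0.61). Fos turned positive without Control 1 (0.10), LLC 1 (0.11) or LLC 2 (0.05). Ier2 turned negative with limma voom (-0.0068), without Control 2 (-0.12), without LLC 5 (-0.11) and without LLC 1 and LLC 5 (-0.04), and Atf3 turned positive without Control 4 (0.89).

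The difference in the Junb share, 7.60 percentage points, ran from 5.68 to 8.87 with each library left out and passed at an adjusted exact permutation p of 0.0476 without LLC 3 (7.60), as did the NR4A sum without LLC 3 (-24.7, range -26.1 to -17.6). The JUN sum ran from 4.27 to 11.2 and the Fosl2 share from 10.6 to 23.6. The FOS sum changed sign without exonic length (3.98) and with libraries left out (-3.10 to 0.86), and the Nr4a1 share did so without LLC 1 (-3.31 to 0.63).

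With the replicate number as a block, 112 genes were called over all genes, 10 list genes became 2 and 1 member was called. Egr1 had a log2 fold change of -2.11 (adjusted p = 0.255), Fosl2 0.82 (adjusted p = 0.041), Atf3 0.32 and Ier2 -0.14. The correlations of same-numbered libraries were -0.03, 0.01, -0.08 and 0.13 for numbers 1 to 4, so the numbers did not pair the animals. Fosb had the fewest counts, 4 to 43 per library.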
